A study of Drosophila melanogaster with 2 samples.

Results

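The 8 genes described here are 5 that mark or serve the principal cells of the fly renal tubule (*Uro*, *Irk2*, *ZnT35C*, *NaPi-T* and *CapaR*) and 3 that mark or serve its stellate cells (*SecCl*, *ClC-a* and *tsh*). They are among 15423 genes, and all 8 were found in both count tables. They were chosen by name for their known roles in the tubule, with earlier results of these data known. The tables hold snRNA-seq counts of nuclei from dissected nephrocyte preparations of adult *Drosophila melanogaster* aged 5 to 7 d, genotype w1118; Dot-Gal4, UAS-GFP.nls, in which the *Dot* promoter drives a nuclear GFP, with 1 female and 1 male sample that share this genotype. Many flies were pooled per tube, and the nuclei were stained and sorted before droplet capture. The deposit names 1 table for female and 1 for male flies, but ties neither to a sample record, and the columns carry nucleus barcodes only. No sex was therefore assigned, and the tables are called the larger matrix (named for female flies, 7890 barcodes, 19107558 unique molecular identifiers, UMIs) and the smaller matrix (named for male flies, 5978 barcodes, 18130609 UMIs). With 1 sample per sex, a difference between the matrices has no replicate check.

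The fly kidney has 2 parts. Nephrocytes filter the hemolymph, and the Malpighian tubules secrete urine. In the tubule, the large principal cells pump protons and move potassium, sodium and organic solutes, whereas the small stellate cells between them pass chloride and water. Capa peptides act on principal cells and the leucokinin peptide acts on stellate cells to raise the rate of secretion.

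The preparations held nuclei of many tissues. Clustering of 13867 nuclei, with the 8 genes and 55 other transport genes left out, gave 40 clusters. A cluster of 101 nuclei with 8 of 8 nephrocyte markers raised was called nephrocyte-like. A cluster of 141 nuclei was called tubule principal-like because 11 of 13 principal cell markers, none of them among the 8 genes, were at least 3-fold above the level in the other nuclei. It held 80 nuclei in the larger matrix, 1.01% of its nuclei (0.805 to 1.26%, 95% Clopper-Pearson), and 61 nuclei or 1.02% (0.781 to 1.31%) in the smaller. *Smvt*, *List*, *salt* and *CG15406*, 4 of those markers, were at 231, 208.3, 253.8 and 428 CPM (UMIs of the gene scaled to a common total of UMIs) in the principal-like nuclei of the larger matrix and at 152.6, 181.4, 136.1 and 387.6 CPM in those of the smaller matrix. In the other nuclei these 4 were at 1.22 to 13.2 CPM. The 2 markers not raised were *Best2*, at 0.932 and 0.723 times the other nuclei in the larger and smaller matrix, and *Debcl*, at 0.859 and 1.35 times. No marker of any of the other cell classes searched was raised in this cluster. Its nuclei were deeper than the rest, with a median of 1846 UMIs against 1311 UMIs in the other nuclei of the larger matrix, and of 2564 UMIs against 1475 UMIs in the smaller matrix. No cluster could be called stellate-like. Intervals here cover counting error only, and since these are bulk sums over groups of nuclei, fewer nuclei of a type and less RNA per nucleus cannot be told apart where tables are compared whole.

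Of the 5 principal cell genes, *Uro*, *ZnT35C* and *NaPi-T* were called higher in the principal-like nuclei, *Irk2* was not, and *CapaR* is described without a test. *Uro*, *ZnT35C*, *NaPi-T* and *CapaR* were at 15.2 to 178 CPM in the principal-like nuclei of either matrix and at 0.318 to 6.82 CPM in the other nuclei. Principal-like nuclei supplied 1.36% of all UMIs, but 41.2% of the *Uro* UMIs, 29.6% of the *ZnT35C* UMIs, 37.5% of the *NaPi-T* UMIs and 43.5% of the *CapaR* UMIs, compared with 1.69% of the *Irk2* UMIs.

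*Uro* encodes urate oxidase, which degrades uric acid and is a classic product of the main segment of the tubule. It had 30 UMIs in 13 of 80 principal-like nuclei (113.6 CPM) against 26 UMIs in the other nuclei (1.38 CPM) of the larger matrix. In the smaller matrix it had 31 UMIs in 18 of 61 principal-like nuclei (127.8 CPM) against 61 UMIs in the other nuclei (3.41 CPM). The levels of the principal-like sums and of the other sums did not overlap, which with 2 sums a side is no support by itself. The log2 fold change was 5.71 ± 0.42 (SE, 2 sums a side, edgeR quasi-likelihood test with Benjamini-Hochberg adjustment over 9937 genes, adjusted p = 1.505e-10). Most principal-like nuclei carried no *Uro* UMI, and no nucleus among them carried more than 6.

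*ZnT35C* encodes a zinc transporter that loads zinc into storage granules of the tubule. It was at 178 CPM (47 UMIs) in the principal-like nuclei against 3.77 CPM in the other nuclei of the larger matrix, and at 140.2 CPM (34 UMIs) against 6.82 CPM in the smaller matrix. Its log2 fold change was 4.95 ± 0.37 (edgeR, adjusted p = 2.579e-10). A single nucleus held 36.2% of the principal-like *ZnT35C* UMIs of the larger matrix (17 UMIs) and another held 44.1% of those of the smaller matrix (15 UMIs). Without the nucleus richest in principal cell genes of each matrix the log2 fold change was 4.23 and remained called.

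*NaPi-T*, a sodium-dependent phosphate transporter, was spread more evenly over nuclei. It had 23 UMIs in 20 of 80 principal-like nuclei (87.1 CPM) against 2.07 CPM in the other nuclei of the larger matrix, and 28 UMIs in 17 of 61 (115.4 CPM) against 2.57 CPM in the smaller matrix. The log2 fold change was 5.42 ± 0.45 (edgeR, adjusted p = 1.72e-09), and the highest value in any principal-like nucleus was 7 UMIs.

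*CapaR*, the receptor for Capa peptides, was near the limit of detection. Its 10 UMIs in the larger matrix and 13 UMIs in the smaller matrix came from 9 nuclei each. Of these, 4 UMIs (15.2 CPM) and 6 UMIs (24.7 CPM) lay in principal-like nuclei, against 6 UMIs (0.318 CPM) and 7 UMIs (0.391 CPM) in all other nuclei. *CapaR* passed the filter on low counts (1.10 CPM in 2 of the 4 sums) only through the principal-like sums, so its test is void and no p-value is given. The ratio over both matrices had a counting interval of 21.9 to 138.

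*Irk2* encodes an inwardly rectifying potassium channel through which potassium enters principal cells. It was at 56.8 CPM in the principal-like nuclei against 50.6 CPM in the other nuclei of the larger matrix, and at 32.98 CPM against 21.5 CPM in the smaller matrix. The log2 fold change of 0.35 ± 0.39 did not pass the test (edgeR, adjusted p = 0.8451), and the ratio of 1.25 had a counting interval of 0.788 to 1.88. Its 2 relatives on the potassium channel list were both called higher. *Irk1* was at 246.2 CPM against 37.9 CPM in the larger matrix and at 206.2 CPM against 49.8 CPM in the smaller matrix, and *Irk3* at 94.7 CPM against 6.85 CPM and at 111.3 CPM against 6.32 CPM. Both passed the test, with log2 fold changes of 2.37 ± 0.27 (*Irk1*, adjusted p = 5.865e-07) and 3.95 ± 0.36 (*Irk3*, adjusted p = 1.387e-08, edgeR). A single nucleus held 38 of the 65 *Irk1* UMIs in the principal-like nuclei of the larger matrix, and another held 28 of the 50 in those of the smaller.

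**Figure D1:**
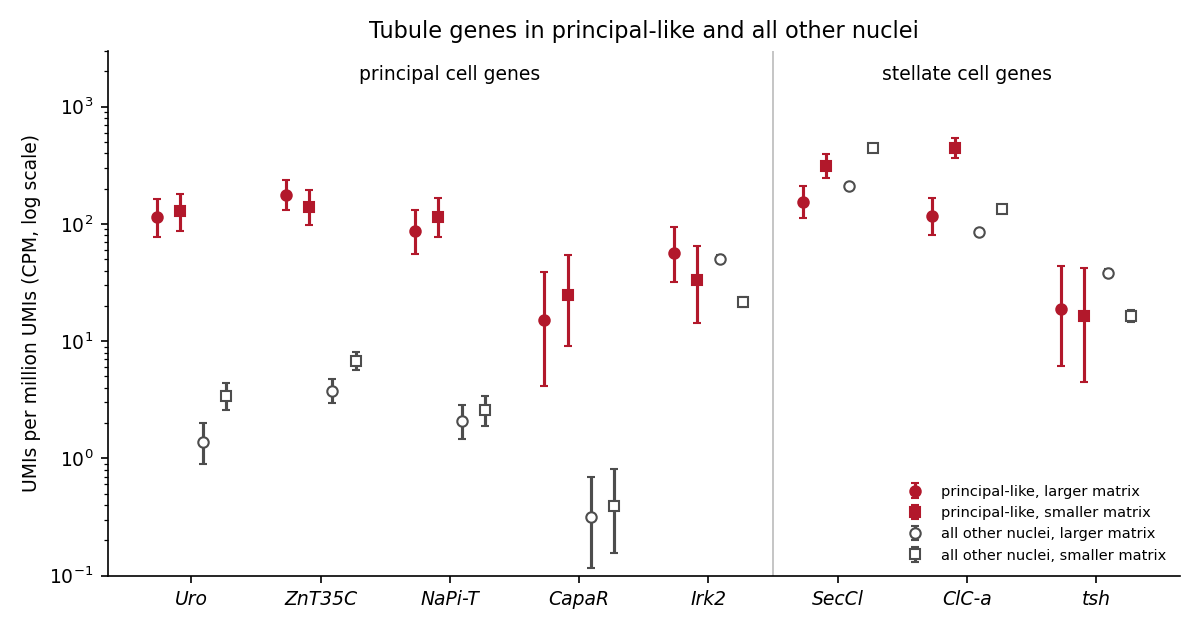
CPM (log scale) of the 8 genes in principal-like nuclei (filled red) and all other nuclei (open gray), with the larger matrix as circles and the smaller as squares; bars are 95% exact Poisson intervals for counting error. *Uro*, *ZnT35C*, *NaPi-T* and *CapaR* lie far above the other nuclei in both matrices, *Irk2* and *tsh* overlap them, and *ClC-a* is higher mainly in the smaller matrix.

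The stellate cell genes did not share this pattern. *SecCl*, a ligand-gated chloride channel of stellate cells, was at 155.3 CPM in the principal-like nuclei against 210.2 CPM in the other nuclei of the larger matrix, and at 313.4 CPM against 444.5 CPM in the smaller matrix. The log2 fold change of -0.49 ± 0.22 missed the threshold (edgeR, adjusted p = 0.3355). *tsh*, which encodes a zinc-finger transcription factor of stellate cells, had 9 UMIs in the principal-like nuclei, at 18.9 CPM against 38.05 CPM in the larger matrix and at 16.5 CPM in both groups of the smaller matrix. Its log2 fold change of -0.59 ± 0.52 also missed the threshold (adjusted p = 0.7817).

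*ClC-a*, a voltage-gated chloride channel, was called higher in the principal-like nuclei, but clearly so only in the smaller matrix. It was at 117.4 CPM (31 UMIs in 20 of 80 nuclei) against 86.0 CPM in the other nuclei of the larger matrix, and at 445.3 CPM (108 UMIs in 31 of 61 nuclei) against 134.4 CPM in the smaller matrix. The principal-like level was 1.37 times (0.925 to 1.95) the other level in the larger matrix and 3.31 times (2.71 to 4.02) in the smaller. In the larger matrix 1 nucleus held 11 of the 31 UMIs, and without it the principal-like level was 76.9 CPM, below the other nuclei. The joint log2 fold change of 1.15 ± 0.26 passed edgeR's test (adjusted p = 0.007138) but not that of DESeq2 (adjusted p = 0.1482), and over 8 fits its adjusted p ran from 0.0001166 to 0.7567. No stellate marker was raised in these nuclei.

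Over all genes tested, 252 of 9937 (2.54%) were called higher and 185 (1.86%) lower in principal-like nuclei, 4.40% in all, with a median log2 fold change of -0.16. Of these 9937 genes, 9004 passed the filter on the sums of the other nuclei alone, and 203 of them (2.25%) were called higher. The 185 called lower were not split by the sums that carried them past the filter. All 8 members passed the filter, *CapaR* only through the principal-like sums. Of the other 4 principal cell genes 3 were called higher and none lower, and of the 3 stellate cell genes 1 was called higher and none lower. The test has 2 sums a side and 1 residual degree of freedom, so its p-values lean on the spread shared across genes. Without the matrix as a block only 3 genes were called higher and 0 lower, and no member passed. Over the 8 fits the edgeR or DESeq2 adjusted p ran from 2.249e-50 to 0.1803 for *Uro*, from 1.793e-50 to 0.124 for *ZnT35C*, and from 5.834e-30 to 0.07896 for *NaPi-T*, each highest without the block.

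Most of the other listed transport genes were not called. Of 46 that passed the filter on low counts, 10 were called higher and 2 lower in principal-like nuclei, with a median log2 fold change of 0.22. Among the 10, *Zip71B* and *st* passed the filter only with the principal-like sums, so their tests are void and no p-value is given for them. *bw*, *Best3* and *Eglp1*, none of them called, also needed those sums to pass. Of the 2 lower, *Oct-TyrR* passed only with the sums of the other nuclei, so its test is void too. The potassium channels *Irk1* and *Irk3* are 2 of the 10. Among 8 cation exchangers and pumps, *Atpalpha*, the catalytic subunit of the sodium pump, was higher, with a log2 fold change of 1.16 ± 0.18 (2742 against 1191 CPM in the larger matrix, 2989 against 1354 CPM in the smaller, edgeR adjusted p = 0.0001207). The sodium-proton exchanger *Nhe2* was lower, at 26.5 against 75.9 CPM and 49.5 against 119.5 CPM, with a log2 fold change of -1.40 ± 0.34 (adjusted p = 0.01428), a call that DESeq2 did not make. The other 6, which include the cotransporters *Ncc69* and *kcc* and the exchangers *Nha1* and *Nha2*, were not called.

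Among 10 zinc transporters tested besides *ZnT35C*, only *Zip71B* was past the threshold, and its test is void because of the filter. *Zip71B*, a zinc importer of the ZIP family, was at 113.6 against 0.796 CPM in the larger matrix and at 66.0 against 1.96 CPM in the smaller. The list of phosphate and oxalate carriers had 2 of 4 tested genes called. *Picot*, named as a phosphate cotransporter, changed by 1.73 ± 0.31 on the log2 scale (adjusted p = 0.0005366) but differed between the matrices, at 318.2 against 69.5 CPM in the larger and 57.7 against 29.5 CPM in the smaller, and 1 nucleus held 37 of its 84 UMIs in the larger matrix. *CG10513*, placed on that list but with no carrier role known with certainty, had 82 UMIs in 40 of 80 principal-like nuclei of the larger matrix (310.6 against 4.19 CPM) and 83 UMIs in 24 of 61 of the smaller (342.2 against 5.53 CPM). Its log2 fold change was 6.06 ± 0.29 (edgeR, adjusted p = 3.073e-14).

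Of 6 genes of purine degradation and pigment transport, *CG30016* was called higher. *st* was also past the threshold, but its test is void because of the filter. *CG30016* was at 151.5 against 1.65 CPM in the larger matrix and at 222.6 against 4.58 CPM in the smaller, with a log2 fold change of 5.98 ± 0.36 (edgeR, adjusted p = 3.571e-12). *st*, an ABC transporter of eye pigment precursors, had 15 UMIs in all, 9 of them in principal-like nuclei. *w*, the ABC transporter that pairs with *st*, was not called, with a log2 fold change of 0.05 ± 0.31 (adjusted p = 0.9852), in a strain that carries the w1118 allele, whose part in this value was not tested. The adenosine receptor *AdoR*, *ry* (xanthine dehydrogenase) and *bw* did not pass.

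Of the other peptide receptors of principal cells, *Dh31-R* was called higher (287.9 against 49.4 CPM in the larger matrix, 131.9 against 81.8 CPM in the smaller, log2 fold change 1.68 ± 0.33, edgeR adjusted p = 0.001524), a call that DESeq2 did not make (adjusted p = 0.06049, and 1.461e-08 to 0.6376 over the 8 edgeR and DESeq2 fits), with 50 of its 76 UMIs in the larger matrix from 1 nucleus. *Dh44-R2* was not called, and *Dh44-R1* was filtered out with 6 UMIs in all. The water channel list had 1 of 6 genes called, the entomoglyceroporin *Eglp2* (49.2 against 7.43 CPM and 49.5 against 14.1 CPM, log2 fold change 2.24 ± 0.45, adjusted p = 0.002288). None of the 4 other chloride channels tested passed, and the channels *Drip* and *Prip* of stellate cells did not either. Of the receptors, *Oct-TyrR* was past the threshold on the lower side, with 0 UMIs in the principal-like nuclei of the larger matrix and 2 in those of the smaller. The other nuclei were at 20.6 and 34.3 CPM. *Oct-TyrR* passed the filter on low counts only with the sums of the other nuclei, where it was higher, so its test is void and no p-value is given. *Lkr* and *TyrR*, receptors for leucokinin and tyramine on stellate cells, were not called. The 4 genes for the peptides themselves (*Capa*, *Dh31*, *Dh44* and *Lk*) were all filtered out.

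**Figure D2:**
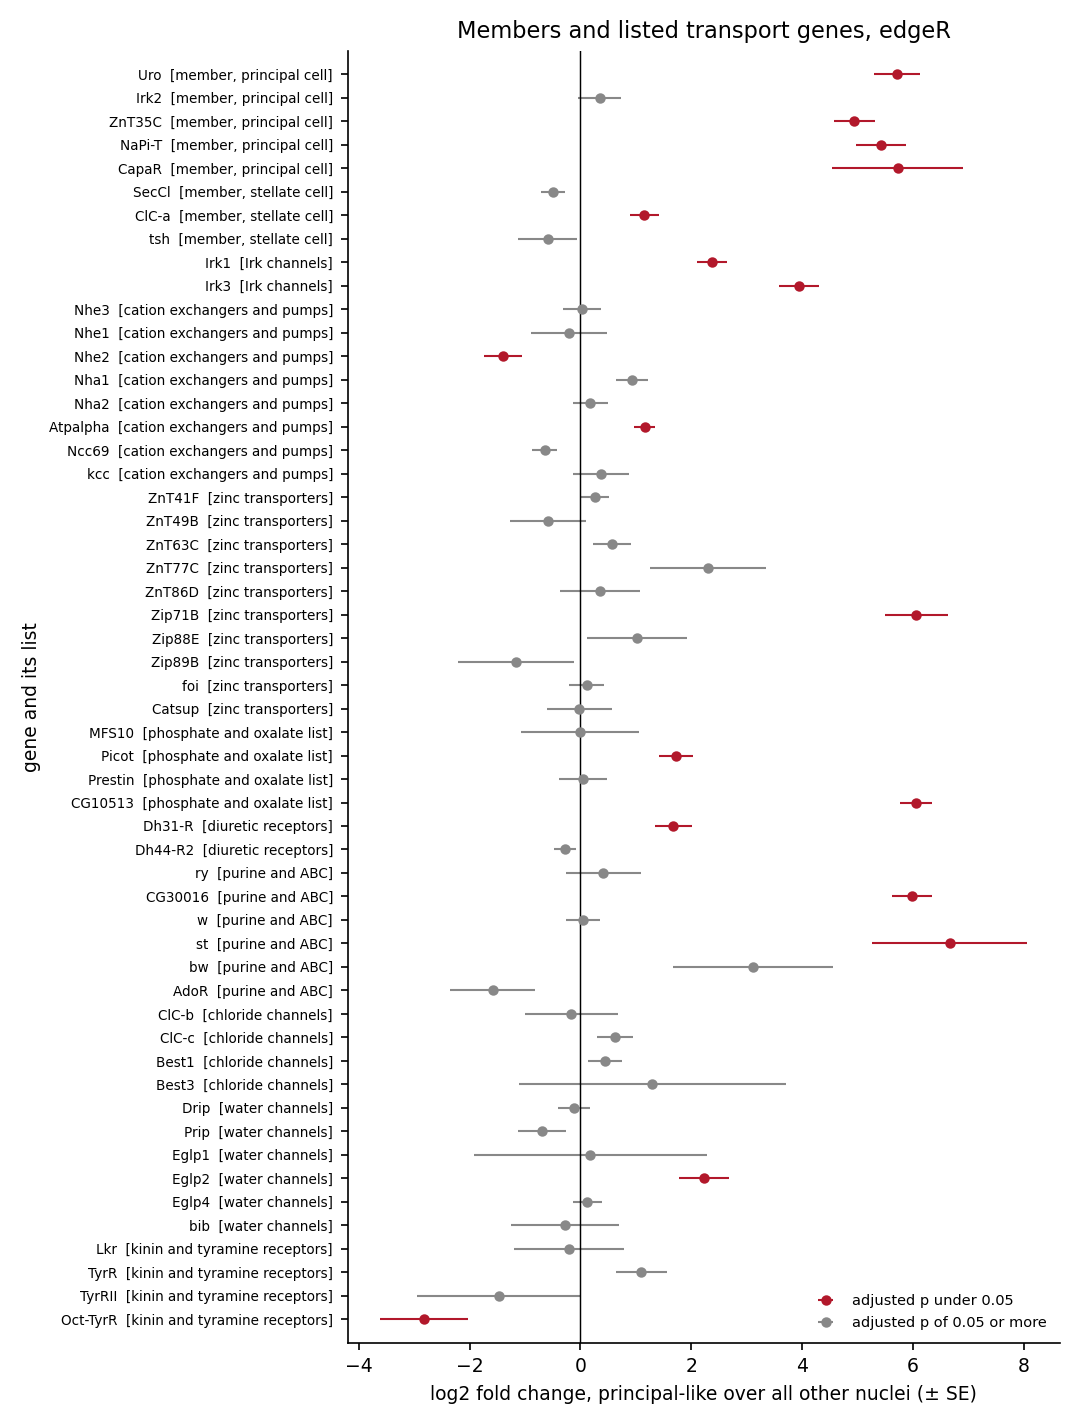
Log2 fold change in CPM of principal-like over all other nuclei (x axis, points with SE bars from edgeR) for each of the 54 tested genes (y axis, with its list), red where the adjusted p is under 0.05. The red points at the far right are *Uro*, *ZnT35C*, *NaPi-T*, *CapaR*, *Zip71B*, *CG10513*, *CG30016* and *st*. Of them *CapaR*, *Zip71B* and *st* passed the low-count filter only with the principal-like sums, so their red color marks no valid test. The same holds for *Oct-TyrR*, red on the left, which needed the sums of the other nuclei to pass. Most other transport genes lie near 0.

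Within the principal-like nuclei *Uro*, *ZnT35C*, *NaPi-T* and *CapaR* were each seen in a minority of nuclei. *NaPi-T* had a UMI in 26.2% of them (19.2 to 34.3%, Clopper-Pearson), *Uro* in 22.0% (15.5 to 29.7%), *ZnT35C* in 20.6% (14.2 to 28.2%) and *CapaR* in 5.67% (2.48 to 10.9%). For comparison, the share in fat body-like nuclei, which have a median of 1100 UMIs, was 0.158% for *NaPi-T*, 0.210% for *Uro*, 0.0526% for *ZnT35C* and 0 of 1902 for *CapaR*. In all nuclei outside the principal-like cluster it was higher, at 0.568% for *NaPi-T*, 0.495% for *Uro*, 0.823% for *ZnT35C* and 0.073% for *CapaR*. With every nucleus thinned to 500 UMIs the shares in principal-like nuclei were 6.38% for *NaPi-T*, 5.67% for *Uro*, 5.67% for *ZnT35C* and 0.709% for *CapaR*, and 0.0526%, 0.0526%, 0% and 0% in fat body-like nuclei. After thinning, the shares in all nuclei outside the principal-like cluster were 0.124% for *NaPi-T*, 0.109% for *Uro* and 0.175% for *ZnT35C*. The principal-like shares of *NaPi-T*, *Uro* and *ZnT35C* were above both comparison groups at either depth. That of *CapaR* was above them before thinning. After thinning it rested on 1 nucleus (0.709%, 0.018 to 3.89%, against 0.0146% in all nuclei outside the cluster), with 0 of 61 in the smaller matrix, too few to compare. *ZnT35C* was also found in spermatocyte-like nuclei, as given below.

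Counted together, 79 of 141 principal-like nuclei (56.0%, 47.4 to 64.4%) had a UMI of at least 1 of *Uro*, *ZnT35C*, *NaPi-T* and *CapaR*, 57 had exactly 1 of the genes, 18 had 2, 4 had 3 and none had all 4. Among the 13726 other nuclei, 244 (1.78%) had at least 1 and 22 (0.160%) had 2 or more. The other nuclei with 2 or more of the genes were deep, with a median of 14652.5 UMIs, compared with 2988 UMIs in the 22 principal-like nuclei with 2 or more. They were scattered over 12 clusters with at most 5 nuclei in each.

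Outside the principal-like cluster the 4 genes were low but not uniform. The median over the 39 clusters of at least 30 nuclei was 1.62 CPM for *Uro*, 2.42 CPM for *ZnT35C*, 2.08 CPM for *NaPi-T* and 0 CPM for *CapaR*, and 12, 7, 7 and 30 of the clusters had no UMI of them. *Uro*, *NaPi-T* and *CapaR* were next highest at 20.2, 9.56 and 7.42 CPM. The *Uro* value is 7 UMIs from 1 nucleus in a cluster led by *CG13285*, and the *CapaR* value is 2 UMIs. In nephrocyte-like nuclei *Uro* and *CapaR* were at 0 UMIs, which allows up to 3, *NaPi-T* had 1 UMI and *ZnT35C* had 2.

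*ZnT35C* was also found in spermatocyte-like nuclei. It had 37 UMIs in 22 of 46 spermatocyte-like nuclei (90.7 CPM), all in the smaller matrix. Principal-like nuclei of that matrix were at 140.2 CPM, with a UMI in 12 of 61, and at 80.8 CPM without the nucleus richest in *ZnT35C*. With all nuclei the ratio of 1.55 (0.941 to 2.53, principal-like over spermatocyte-like) did not differ from 1 beyond counting error. A further 37 UMIs lay in 13 of 494 nuclei of the male accessory gland-like cluster (29.5 CPM, 20.8 to 40.6), also of the smaller matrix, with up to 13 UMIs in a nucleus. In that cluster *Uro* was at 12.7 CPM (16 UMIs in 12 nuclei) and *NaPi-T* at 9.56 CPM (12 UMIs in 11 nuclei), and 4 of the 13 principal cell markers (*Oatp58Db*, *Oatp58Dc*, *CG17752* and *CG15406*) were raised there too, with none of the 13 at 0. In the spermatocyte-like cluster *Uro* and *NaPi-T* were at 0 and 1 of the 13 principal cell markers (*Oatp58Db*) was raised. The part of tubule RNA in these values was not tested.

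*Irk2* was high in midgut enterocyte-like nuclei and in clusters without a name, and the order differed between the matrices. In the larger matrix it was at 495.7 CPM in a cluster of 128 nuclei led by *CG34203* (53 UMIs in 10 nuclei, up to 19 in 1), at 263.5 CPM in midgut enterocyte-like nuclei and at 155.5 CPM in a cluster of 395 nuclei led by the potassium channel gene *Shawl*. The ratio to the enterocyte-like level was 1.88 (1.30 to 2.70) for the *CG34203* cluster and 0.590 (0.401 to 0.860) for the *Shawl* cluster. In the smaller matrix it was at 12.3 CPM (2 UMIs), 173.2 CPM and 188.6 CPM in the same 3 clusters, and the *Shawl* and enterocyte-like levels did not differ beyond counting error (ratio 1.09, 0.743 to 1.58). The *Shawl* cluster has no name. In it 2 of 10 enterocyte genes (*Amy-p* and *Amy-d*), 1 of 11 stellate genes (*Lim3*) and 1 of 4 stem cell genes (*Sox100B*) were raised. Over both matrices principal-like nuclei were at 45.4 CPM, and the lowest cluster, fat body-like, was at 4.90 CPM.

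*SecCl* was highest in midgut enterocyte-like nuclei and in the *Shawl* cluster, in an order that differed between the matrices. The *Shawl* cluster was at 2866 CPM and the enterocyte-like nuclei at 3206 CPM in the larger matrix (ratio 0.894, 0.814 to 0.982), and at 4848 and 3810 CPM in the smaller (ratio 1.27, 1.18 to 1.37). The next clusters were at 757.5 CPM in the larger and 606.6 CPM in the smaller matrix. The 661 nuclei of the enterocyte-like and *Shawl* clusters gave 3.64% of all UMIs and 41.2% of the *SecCl* UMIs. A *SecCl* UMI was found in 67.8% of these nuclei in the larger matrix (3036 CPM against 119.0 CPM elsewhere) and in 76.9% in the smaller (4126 CPM against 280.5 CPM elsewhere). With nuclei thinned to 500 UMIs the share was 66.9% in the enterocyte-like and 56.2% in the *Shawl* cluster, compared with 1.998% in fat body-like nuclei. Other genes of stellate transport were also high there. The tyramine receptor *TyrR* was at 153.8 and 269.4 CPM in the larger and smaller matrix against 7.08 and 14.3 CPM elsewhere, *Drip* at 339.6 and 472.1 CPM against 72.3 and 108.0 CPM, and *Prip* at 285.5 and 282.5 CPM against 39.0 and 24.6 CPM. *ClC-a* was low there (53.8 against 114.0 CPM over both matrices) and *tsh* was at 21.4 against 27.7 CPM.

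*ClC-a* was spread widely, with a UMI in 16.5% of all barcodes and in every one of the 39 clusters. In the larger matrix it was highest in the *CG34203* cluster (299.3 CPM) and in a cluster of 217 nuclei led by *SPR* (278.6 CPM), and principal-like nuclei were below the *SPR* cluster (ratio 0.421, 0.281 to 0.612). In the smaller matrix principal-like nuclei were highest at 445.3 CPM, above a cluster of 188 nuclei led by lncRNA:CR44909 at 353.3 CPM (ratio 1.26, 1.02 to 1.55). Fat body-like nuclei were at 201.4 CPM in the larger and 232.2 CPM in the smaller matrix and gave 14.3% of the *ClC-a* UMIs, and heart muscle-like nuclei were at 143.1 and 223.1 CPM. Principal-like nuclei were below the fat body-like cluster led by *Yp1* in the larger matrix (ratio 0.534, 0.356 to 0.775), and above the one led by *Cyp12d1-d* in the smaller (ratio 1.92, 1.52 to 2.43).

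*tsh* was highest in the *CG34203* cluster, at 467.6 CPM in the larger and 215.2 CPM in the smaller matrix. Second in the larger matrix was a cluster of 434 nuclei led by *CG10591*, all but 1 of them in that matrix, at 289.5 CPM (ratio 1.615, 1.17 to 2.19, *CG34203* over *CG10591*). In the *CG10591* cluster 130 of 434 nuclei had a *tsh* UMI and no nucleus had more than 9. The neural gene *elav* and the tracheal genes *trh* and *btl* were among the raised markers there, and no stellate marker was. In the *CG34203* cluster 13 of 128 nuclei had a *tsh* UMI, and 69 of its 85 UMIs came from 5 nuclei. Without those 5 the cluster was at 31.1 CPM (3 UMIs) in the larger and 82.5 CPM (13 UMIs) in the smaller matrix. That cluster met 5 of 11 stellate markers (*Nep2*, *CG30377*, *Octalpha2R*, *Pvf1* and *dac*) but was left unnamed because the hindgut gene *byn*, 91.4-fold above the other nuclei, was among its 10 leading genes and no stellate marker was among the first 50. The same 5 nuclei held 137 of its 148 *Octalpha2R* UMIs, 10 of 10 of *dac*, 15 of 27 of *Nep2*, 11 of 20 of *CG30377* and 22 of 73 of *Pvf1*. The stellate markers *Lim3* and *Ih* were lower there, at 0.407 and 0.613 times the other nuclei, and *tio* had 0 UMIs.

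**Figure D3:**
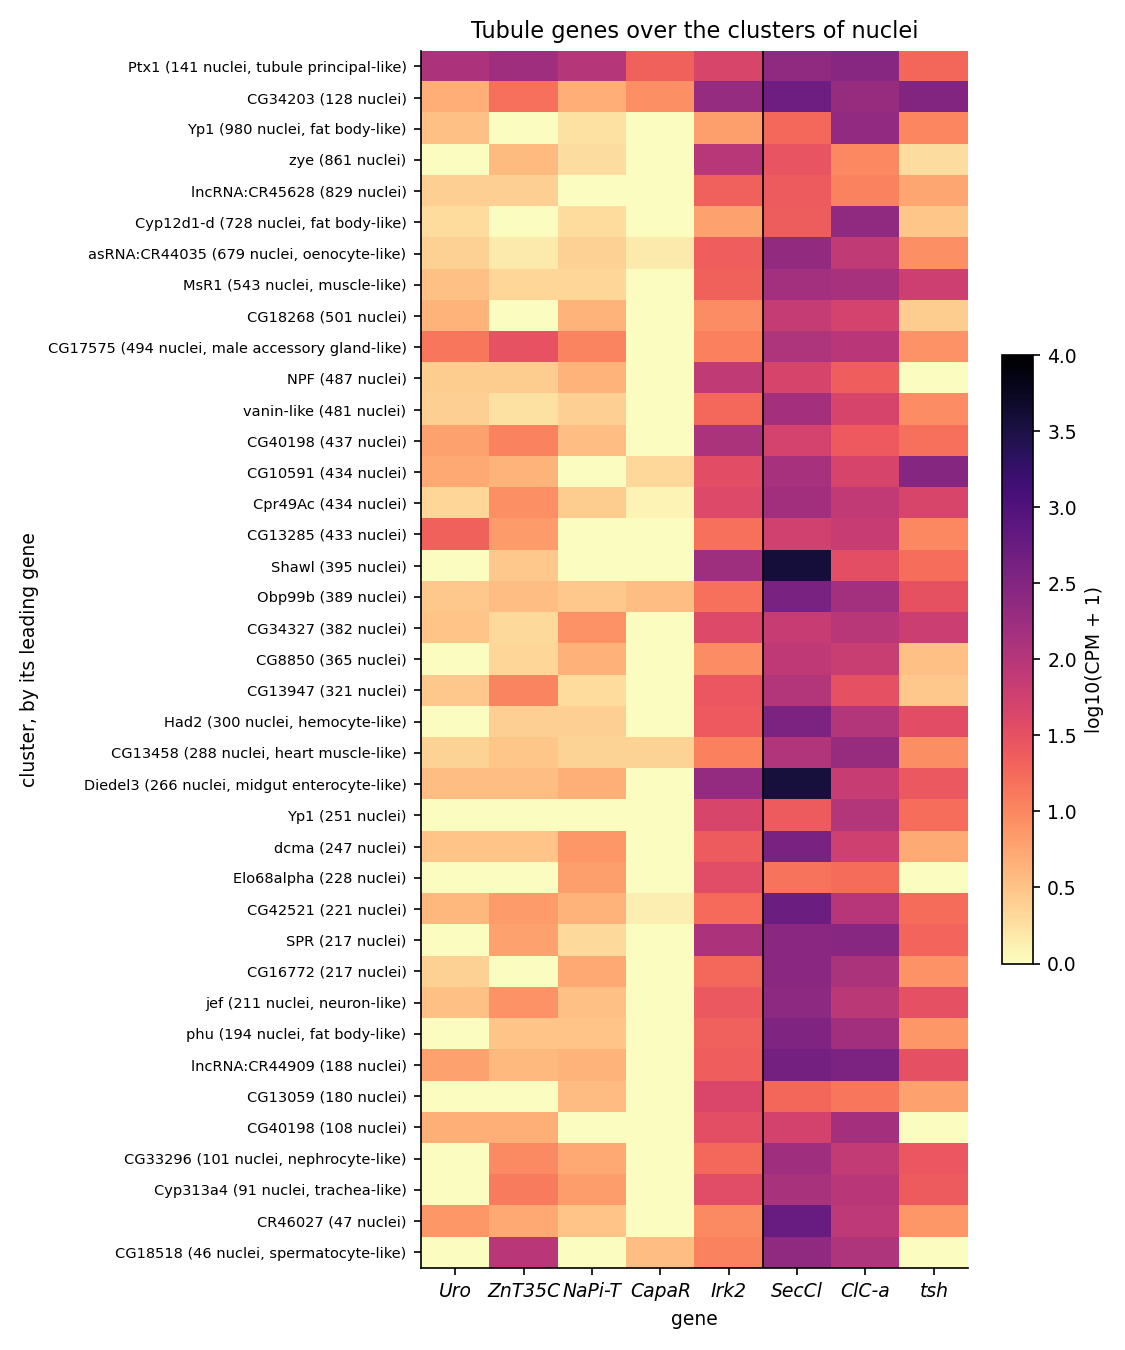
Heat map of log10(CPM + 1) of the 8 genes (columns, principal cell genes left of the line) in the 39 clusters of at least 30 nuclei (rows, by leading gene, number of nuclei and name where given). The first row, the principal-like cluster, holds the highest values of *Uro*, *ZnT35C*, *NaPi-T* and *CapaR*, whereas *SecCl* is darkest in the *Shawl* and enterocyte-like rows and *tsh* in the *CG34203* and *CG10591* rows.

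Nuclei with a stellate profile were looked for one by one, through *tsh* and the leucokinin receptor *Lkr*. The choice was made after the values were seen, and no test was run. In all, 12 nuclei had 2 or more UMIs of both, 4 of 7889 in the larger matrix (0.0507%, 0.0138 to 0.130%) and 8 of 5978 in the smaller (0.134%, 0.0578 to 0.264%). They gave 46.8% of all *Lkr* UMIs and 18.5% of all *tsh* UMIs, shares that are raised by the choice of nuclei through these genes. All 12 also carried *Octalpha2R*, an octopamine receptor gene, with 4 to 81 UMIs (3897 CPM against 65.1 CPM in the other nuclei), and 10 of 12 carried *Nep2*, a neprilysin peptidase gene (679.2 against 9.15 CPM). Of other stellate genes, *Lim3* was in all 12 and *Pvf1* in 11, but *Drip*, *Prip* and *CG30377* were in 5 each and *TyrR* in 2. *Uro* and *byn* had no UMI in the 12 nuclei. *CapaR* had 4 UMIs in 2 of them, 17.4% of its UMIs in all nuclei. Of the 12, 5 lay in the *CG34203* cluster, 3 in a cluster led by *Obp99b* and 4 in 4 other clusters. The 5 in the *CG34203* cluster held only 1 of its 87 UMIs of the stellate marker *RhoGEF64C*. The depth of the 12 was 2119 to 21220 UMIs with a median of 5012, compared with 1386 in all nuclei. A further 15 nuclei with both genes had only 1 UMI of at least 1 of them, and most had 1 UMI of each, at a median of 12542 UMIs.

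*SecCl* and *ClC-a* were uneven among these 12 nuclei. In the larger matrix a nucleus of 5329 UMIs had 32 *tsh*, 14 *Lkr*, 66 *SecCl* and 12 *ClC-a* UMIs with 22 of the aquaporin *Drip* and 11 of *CG30377*, and a nucleus of 4152 UMIs had 11 *tsh*, 3 *Lkr*, 63 *SecCl*, 6 *ClC-a* and 8 *Drip*. In the smaller matrix a nucleus of 13981 UMIs had 45 *tsh*, 43 *Lkr*, 57 *SecCl*, 72 *ClC-a*, 26 *Drip* and 16 *CG30377*, and a nucleus of 9112 UMIs had 25 *tsh*, 6 *Lkr*, 32 *SecCl*, 20 *ClC-a*, 12 *Drip* and 24 *CG30377*. These 4 nuclei held both channels and both *Drip* and *CG30377*, and none had a *Dh31-R* UMI. The 5 nuclei with 3 or more *Dh31-R* UMIs had at most 3 UMIs of *SecCl* and *ClC-a* together and none of *Drip* or *CG30377*, with 2 to 16 UMIs of *tsh* and 2 to 8 of *Lkr*. The other 3 nuclei followed neither pattern. A nucleus of 21220 UMIs had 18 *tsh*, 19 *Lkr*, 1 *SecCl*, 3 *ClC-a* and 1 *Dh31-R* UMIs, a nucleus of 2119 UMIs had 7 *SecCl* and none of *ClC-a*, *Drip* or *Dh31-R*, and a nucleus of 15252 UMIs had 25 *SecCl*, 13 *ClC-a* and 4 *Drip* but no *CG30377*. Since 1 nucleus gives 1 value, and droplets can hold more than 1 nucleus, whether these are separate kinds of nuclei was not tested.

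**Figure D4:**
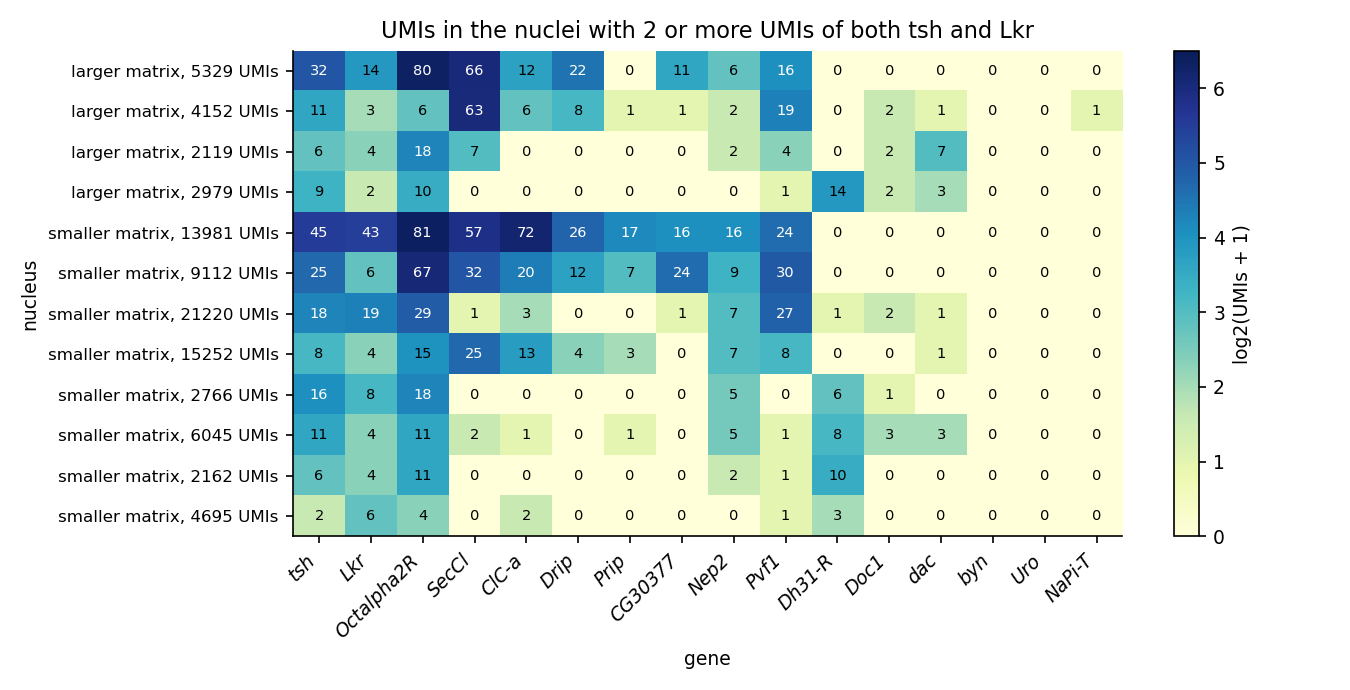
UMIs (numbers; color is log2(UMIs + 1)) of 16 genes (columns) in the 12 nuclei (rows, with matrix and total UMIs) that have 2 or more UMIs of both *tsh* and *Lkr*. The nuclei of 5329, 4152, 13981 and 9112 UMIs hold *SecCl*, *ClC-a*, *Drip* and *CG30377* with no *Dh31-R*, and the 5 nuclei with 3 or more *Dh31-R* UMIs hold little or no *SecCl* and *ClC-a*.

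Over all nuclei, those with several stellate genes were deep. *SecCl*, *ClC-a* and *tsh* were seen together in 57 nuclei with a median of 17504 UMIs, and *SecCl* with *ClC-a* in 506 nuclei with a median of 8553 UMIs. Of the 57, 1 was principal-like and 2 lay in the *CG34203* cluster.

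Between the matrices, *Uro*, *ZnT35C*, *NaPi-T* and *CapaR* in principal-like nuclei had ratios whose counting intervals hold 1. In whole tables *Uro* was at 2.93 CPM in the larger and 5.07 CPM in the smaller matrix (ratio 0.578, 0.407 to 0.814), and *ZnT35C* at 6.18 and 8.60 CPM (ratio 0.718, 0.560 to 0.918). Within principal-like nuclei the ratios were 0.889 (0.520 to 1.52) for *Uro*, 1.27 (0.800 to 2.04) for *ZnT35C*, 0.755 (0.415 to 1.36) for *NaPi-T* and 0.612 (0.127 to 2.58) for *CapaR*. Without the nucleus richest in *ZnT35C* in the smaller matrix its ratio was 2.20 (1.27 to 3.97), and without the richest of each matrix 1.41 (0.769 to 2.65). *NaPi-T* was at 3.25 and 4.08 CPM in whole tables and *CapaR* at 0.523 and 0.717 CPM.

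The other 4 genes had whole-table ratios whose counting intervals did not hold 1. *Irk2* was at 50.7 CPM in the larger and 21.6 CPM in the smaller matrix (ratio 2.34, 2.08 to 2.64) and *tsh* at 37.8 and 16.5 CPM (ratio 2.29). *SecCl* was at 209.4 and 442.7 CPM (ratio 0.473, 0.455 to 0.491) and *ClC-a* at 86.4 and 138.6 CPM (ratio 0.624, 0.586 to 0.664). The tables also differ in their clusters. The *CG10591* cluster, which gave 262 of the 722 *tsh* UMIs of the larger matrix, had 1 nucleus in the smaller, and its part in the ratio was not tested. Within principal-like nuclei the ratio of *ClC-a* was 0.264 (0.171 to 0.396) and that of *SecCl* 0.496 (0.330 to 0.734), but 1 nucleus held 31 of the 76 *SecCl* UMIs of the smaller matrix, and without it the *SecCl* ratio was 0.829 (0.529 to 1.29). Without the richest nucleus of each matrix it was 0.616 (0.374 to 0.999). Without the nucleus richest in *ClC-a* in the smaller matrix its ratio was 0.316 (0.203 to 0.480), and without the richest of each 0.207 (0.121 to 0.339). With 1 sample behind each matrix, none of these differences has a replicate check.

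**Figure D5:**
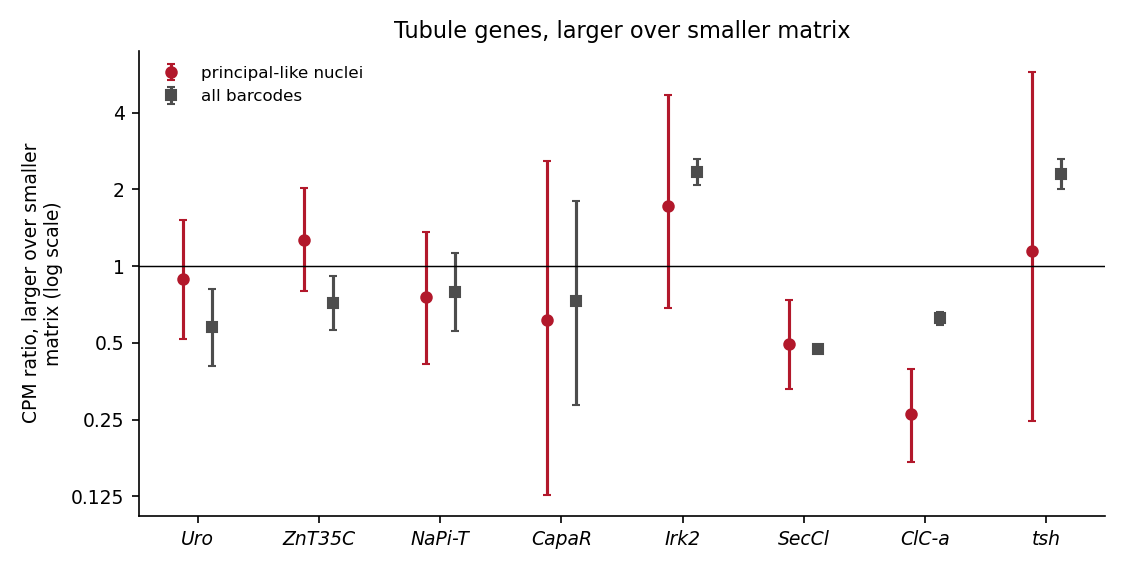
CPM ratio of the larger over the smaller matrix (y axis, log scale) for the 8 genes (x axis), within principal-like nuclei (red circles) and over all barcodes (gray squares), with 95% exact intervals for counting error. The red intervals of *Uro*, *ZnT35C*, *NaPi-T*, *CapaR*, *Irk2* and *tsh* span 1, and those of *SecCl* and *ClC-a* lie below it.

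The genes most like each member over the 39 clusters were taken by Pearson's r of log10(CPM + 10) among 8713 genes with at least 100 UMIs, as a description with no test, since the clusters share libraries and differ in depth. *NaPi-T* was most like *Smvt*, *CG17751* and *List* (r = 0.90 each) and *Uro* most like *CG33258*, *CG10560* and *CG17752* (r = 0.93, 0.91 and 0.89). *Smvt*, *CG17751*, *List* and *CG17752* are among the markers that named the principal-like cluster. *ZnT35C* was most like *Oatp58Db*, *cad* and *Alp2* (r = 0.85, 0.84 and 0.84). *Irk2* was most like *Vha100-2* and *Vha26*, both subunits of the proton pump V-ATPase, and *CG6959* (r = 0.85, 0.71 and 0.69). *SecCl* was most like the cation-chloride cotransporter *Ncc69*, the amylase *Amy-p* and *CG4928* (r = 0.92, 0.91 and 0.89), *ClC-a* most like *CG33080*, *Bsg* and *Ogdh* (r = 0.85, 0.84 and 0.82), and *tsh* most like *grn*, *side-V* and *beat-IIIc* (r = 0.82, 0.78 and 0.77). *CapaR* had too few UMIs for this.

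Among the members, *Uro* with *NaPi-T* (r = 0.80), *Uro* with *ZnT35C* (r = 0.65) and *ZnT35C* with *NaPi-T* (r = 0.64) were the closest pairs over the 39 clusters. *Irk2* was not close to any of the 3, at -0.02, 0.05 and 0.06. The stellate genes were at 0.29 (*SecCl* with *ClC-a*), 0.34 (*SecCl* with *tsh*) and 0.29 (*ClC-a* with *tsh*).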

How the data were processed

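The values are raw UMI counts, a gene by barcode table for each of 2 libraries, deposited by the authors after FastQC and Cell Ranger. Which Cell Ranger version, build and annotation were used is not given in the sources used here. For the library kit, the labels give version 2 and the methods version 3.1. The tables hold only barcodes of at least 500 UMIs (medians 1315 and 1481), 14 barcodes occur in both, and 68 of 15423 genes had no symbol. Of 58 other list genes 55 were matched. The members and lists were chosen with earlier results of these data known.

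Nuclei with at least 200 genes were clustered (scanpy 1.11.5, 2000 variable genes, 30 principal components, 15 neighbors, Leiden resolution 2) without the members and listed genes. A name needed 3 raised markers, each with at least 5 UMIs, at least 3-fold above the other nuclei and with its Poisson lower limit above their level, and the largest share of a marker list. A name was dropped where another class had more markers among the 10 leading genes or no own marker was among the first 50, a rule set after the clusters were seen. No doublet caller was run, so doublets may remain. The *CG10591* cluster met 5 tracheal markers but also raised 4 neural ones, and is given by its leading gene.

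UMIs were summed per matrix for principal-like and all other nuclei and tested with edgeR 4.0.16 (TMM, filterByExpr with a minimum count of 10, quasi-likelihood, matrix as a block), with DESeq2 1.42.0 as an alternative. The block pairs the sums of 1 preparation. Ratios within 1 matrix and without the richest nucleus were added after the data were seen. SE is the log2 fold change over the square root of F. The test was tested on simulated data, where it called 0 of 9737 unchanged genes. The simulated sums had independent noise of the same size in every gene. They held no difference between the matrices and no single nuclei rich in a gene. The 0 therefore does not give the rate of false calls in the real data. Of genes raised 2-fold the test called 0 of 25, and of those raised 4-fold 12 of 25. Of genes lowered 2-fold it called 1 of 25, and of those lowered 8-fold 6 of 25. A gene that was not called may therefore still differ between the groups. CPM, exact Poisson, Clopper-Pearson and conditional intervals are at 95% and cover counting error only, and a count of 0 allows up to 3. Genes named are the members, the listed genes, the markers and, by likeness, the 3 closest genes per member; other genes were named after their values were seen. No sequences are shown.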

Additional observations from a re-analysis of the deposited data

How the results depend on the processing

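The number of principal-like nuclei was 141 and stayed between 118 and 165 under 5 other settings of the clustering, the minimum UMIs and the markers needed, and the number of stellate-like nuclei stayed at 0. With names given by marker count alone, an alternative added after the data were seen, the *CG34203* cluster of 128 nuclei would have been stellate-like. Without the matrix as a block the calls fell to 3 higher and 0 lower. DESeq2 called 48 genes lower, and groups from clustering on all genes gave 291 lower. *Uro*, *ZnT35C* and *NaPi-T* stayed called in the 6 other alternatives and lost the call without the block. *ClC-a* lost it there and in DESeq2, as did *Nhe2* and *Dh31-R*. The log2 fold changes of the 8 members kept their sign in all 7 alternatives. For the CPM ratios of principal-like over other nuclei, 31 of 40 alternative values lay within the counting interval. The mean of per-nucleus CPM gave 85.1 against 30.4 for *ZnT35C*, 156.3 against 55.8 for *CapaR* and 5.87 against 2.51 for *ClC-a*, and the cause was not tested. No paired analysis was possible because no replicate number links samples of the 2 sexes. This is apart from the matrix block of the test, which pairs the 2 sums of a matrix and without which no member was called. *CapaR* had the fewest UMIs of the 8 members, 23 in all, and its values are limited by depth.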
